A study of Homo sapiens with 6 samples.

Results

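The TRIM71 locus was examined as the set of V5 ChIP-seq peaks in a window of 200 kb on chromosome 3 (GRCh38), which starts 67997 bp before the gene and ends 52176 bp after it. The window was proposed from earlier results of these same data, so its peaks are described here and not tested. It held 66 of the 6043 peaks deposited for the 3 V5 libraries, 24 of 1599 in replicate 1, 22 of 2557 in replicate 2 and 20 of 1887 in replicate 3. The cells were HepG2, an established human liver cancer line, in the form the labels name HepG2-TAF2-V5, which carries a V5-tagged TAF2. All groups share that line. The sample titles call the cells hepatocyte. The labels give 3 libraries from precipitation with the V5 antibody and 3 control libraries. These controls are called input in the titles and the treatment label, and IgG in the library name. Peak lists of the controls were not analysed here, and the values below therefore have no control beside them. The labels state neither whether the line is a single clone nor whether the libraries came from separate cultures, so spreads over libraries may be technical. Peak lists carry no expression levels, and the labelled cell type was not checked against its markers.

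TRIM71, the vertebrate counterpart of nematode LIN-41, encodes an RNA-binding protein with a RING domain of ubiquitin ligases and an NHL domain that contacts RNA. It is best known from early embryos and stem cells, where it favours proliferation, and its messenger RNA is a target of the microRNA let-7, which rises as cells differentiate. TAF2 is a subunit of TFIID, the complex that recognises core promoters ahead of RNA polymerase II. The gene (identifier 131405) spans 32817997 to 32897824 on the plus strand, 79828 bp, with its start at the lower coordinate according to RefSeq (GRCh38.p14). Exons and introns were not used here, so peaks are placed by their distance from the start.

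The 250 bases that end just before the annotated start are shown because the peaks of the libraries met this stretch differently. Capitals mark the 115 bases that lay under a peak of both replicate 1 and replicate 3. The sequence is from RefSeq (GRCh38.p14, plus strand, chr3:32817747-32817996).
TRIM71 promoter: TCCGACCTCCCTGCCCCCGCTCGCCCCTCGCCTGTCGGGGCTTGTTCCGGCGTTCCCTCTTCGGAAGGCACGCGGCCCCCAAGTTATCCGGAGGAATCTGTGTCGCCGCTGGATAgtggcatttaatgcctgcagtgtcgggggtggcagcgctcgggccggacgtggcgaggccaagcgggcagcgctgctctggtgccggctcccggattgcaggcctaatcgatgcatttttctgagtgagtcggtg
In replicate 1 a peak covered 115 of these bases, up to 32817861, in replicate 2 no peak touched them, and in replicate 3 a single peak covered all 250. The stretch was 66% G and C, against a median of 58% over the same stretch of 35116 promoters, and it held 25 CpG dinucleotides against a median of 11. Neither value was extreme among these promoters, which were not limited to protein-coding genes. Of them, 70.7% had no more G and C and 80.4% had no more CpG. Neither strand held the TATA box letters TATAAA, present in 10.7% of promoters, nor the GC box letters GGGCGG, present in 42.6%. The letters CCAAT and CACGTG were also not in this stretch, and they were present in 32.01% and 6.34% of promoters. A search of letters says nothing about which factors bind.

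The peaks formed a single dense run that began shortly before the gene and stopped about midway through it. Peaks of a library were joined into a run when no more than 10 kb lay between neighbours. The run started 1514 bp before the TRIM71 start in replicate 1, 1586 bp before it in replicate 2 and 1583 bp before it in replicate 3. These 3 starts lay within 72 bp of each other. The run reached 32730, 38796 and 39213 bp into the gene in replicates 1, 2 and 3, which is 41.0, 48.6 and 49.1% of its length. The last 40614 bp of TRIM71, including its 3′ end, had no peak in any of the 3 lists. The gap of up to 10 kb sets where the run is said to end, and with a largest gap of 5 kb the run of the merged lists stopped 23867 bp into the gene.

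**Figure D1:**
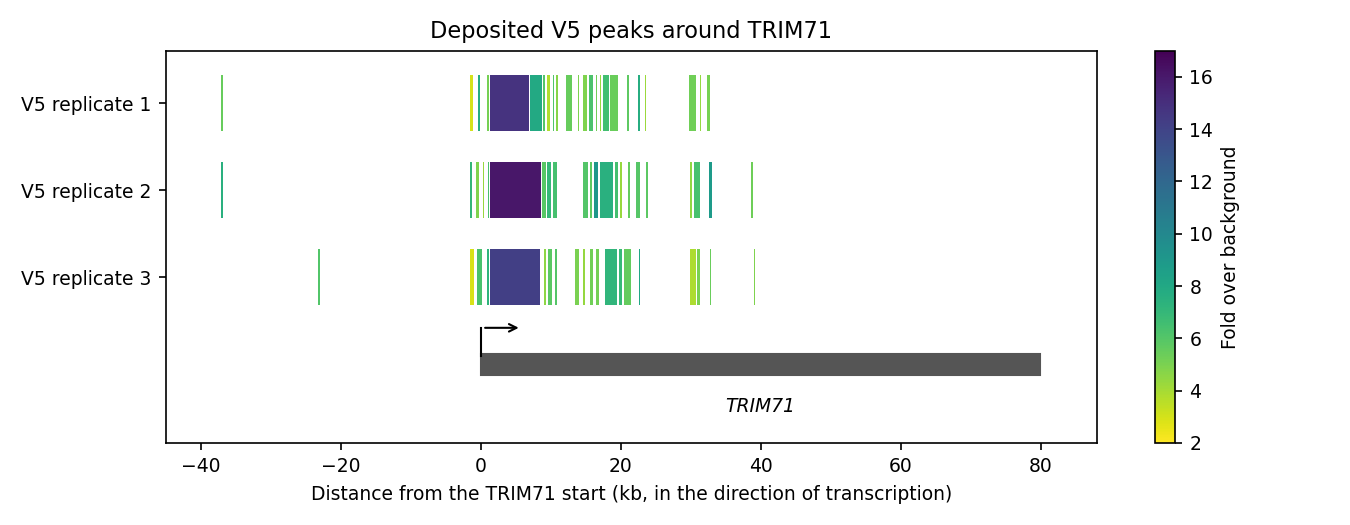
Each block is a deposited V5 peak, placed by its distance in kb from the TRIM71 start (x axis), 1 row per library, with darker colours for a higher fold over background; the grey bar is the gene and the arrow its direction. All 3 libraries show a run from about the start of the gene to at most 39213 bp into it, with its widest peak just inside the gene and no peak farther on.

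The run held 23, 21 and 19 peaks in replicates 1, 2 and 3. The median stretch between neighbouring peaks of the run was 514.5, 446.5 and 614.5 bp, against 241040, 156439 and 213546 bp between neighbours over the whole of each list. Peaks covered 47.01, 42.03 and 40.9% of the run. Taken over the gene alone, 19.3, 20.5 and 19.5% of TRIM71 lay under a peak, a mean of 19.7% ± 0.633 (SD, n = 3). Of the window's peaks, 87.5, 86.4 and 90% overlapped the gene. The shortest of the 3 lists, that of replicate 1, thus held the most peaks of the window, 1.501% of its peaks against 0.860% in replicate 2 and 1.06% in replicate 3. By bases under peaks the order differed, with 16355, 17226 and 16861 bp in replicates 1, 2 and 3.

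Ahead of the gene, 2 places in the run carried peaks of all 3 libraries. The outer, 1586 to 1019 bp before the start, gave folds of 2.94, 7.05 and 2.92 in replicates 1, 2 and 3. Fold is the authors' ratio of a peak to the background of their caller. Folds of the libraries are set side by side here without a test, since depth is unknown and may differ between lists. Within its own list the peak of replicate 2 ranked high by fold, at percentile 84.4, and those of replicates 1 and 3 ranked low, at 2.94 and 2.01. Their -log10 q, the caller's significance after correction, was 2.93, 10.8 and 2.78. The inner place, beside the start, gave folds of 7.76, 4.88 and 6.34. Its summits lay 319 bp before the start in replicate 1, 423 bp before it in replicate 2 and 9 bp before it in replicate 3. The base of the start itself lay under a peak in replicate 3 only, in a peak of 807 bp that ran from 595 bp before to 211 bp after it. A further peak of replicate 2 alone lay just after the start (summit at 396 bp, fold 4.30). All 3 libraries then had a peak about 1 kb into the gene, with summits at 1056, 1071 and 1107 bp and folds of 5.16, 6.30 and 7.27.

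The widest and strongest peak of the window followed directly. In replicate 1 it ran from 1362 to 6824 bp into the gene (5463 bp, fold 14.8, -log10 q 34.9). In replicate 2 it ran from 1356 to 8553 bp (7198 bp, fold 16.1, -log10 q 40.9), and in replicate 3 from 1366 to 8401 bp (7036 bp, fold 14.2, -log10 q 37.3). Its near edge differed by 10 bp between the libraries. Its far edge differed because replicate 1 had a break there, with a further peak from 6978 to 8699 bp (1722 bp, fold 7.96). By fold this peak ranked 6, 7 and 7 in the lists of replicates 1, 2 and 3, by width 4, 3 and 3, and by -log10 q 28, 27 and 26. The summit lay 4716 bp into the gene in replicate 1, against 3194 and 3176 bp in replicates 2 and 3. Replicates 2 and 3 thus placed it 18 bp apart, and replicate 1 placed it 1522 bp farther in than replicate 2.

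**Figure D2:**
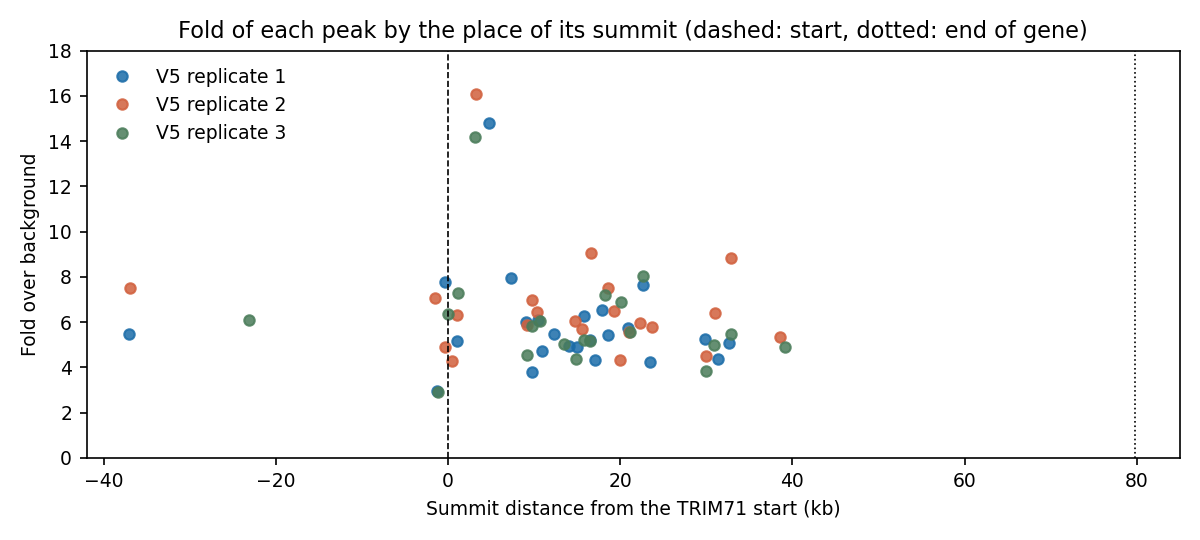
Each point is a peak, by the distance of its summit from the TRIM71 start in kb (x axis) and its fold over background (y axis), coloured by library. The wide peak stands alone at folds of 14.2 to 16.1, and every other peak of the window lies at 9.08 or below.

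Beyond the wide peak, folds were moderate and the libraries named many of the same places. Between 8780 and 10953 bp, 3 neighbouring regions each held peaks of all 3 libraries. The middle of these, with summits at 9767, 9776 and 9799 bp, gave folds of 3.80, 6.96 and 5.83, at percentiles 11.3, 83.7 and 72.2 of their lists, and the summits lay within 32 bp. The outermost of the 3 gave highest folds of 6.09, 6.44 and 6.03, at percentiles 77.4, 77.4 and 76.4. Replicate 1 had 2 peaks there, and the one with fold 6.09 did not overlap the peak of replicate 3. Its other peak, which did overlap it, had a fold of 4.70 at percentile 39.8. A peak of replicate 1 alone followed at 12094 to 12974 bp (fold 5.49), and a region of replicates 1 and 3 at 13449 to 14057 bp (folds 4.95 and 5.02).

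From 14569 to 19611 bp, 4 regions in a row were present in all 3 libraries. The strongest peak of replicate 2 outside the wide one was among them, with its summit at 16643 bp and a fold of 9.08, where replicates 1 and 3 gave 5.23 and 5.17. The last of the 4 was 2669 bp long and was divided into 3 peaks in replicate 1, 2 in replicate 2 and 1 in replicate 3. Its highest folds were 6.54, 7.49 and 7.18, at percentiles 83.8, 88.4 and 89.02. Between 19763 and 20206 bp lay a region of replicates 2 and 3 (folds 4.34 and 6.89).

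The next shared region, from 20502 to 21472 bp, was present in all 3 libraries, with folds of 5.72, 5.56 and 5.57. The region at 22162 to 22772 bp gave folds of 7.64, 5.95 and 8.05, and its summits in replicates 1 and 3 lay 13 bp apart, at 22625 and 22638 bp. Replicates 1 and 2 had a last peak of this stretch at 23403 to 23867 bp (folds 4.24 and 5.80).

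An empty stretch of 5824 bp then separated this part of the run from the next, from 23868 to 29691 bp into the gene, and none of the 3 lists had a peak in it. After it came 2 more regions present in all 3 libraries, at 29692 to 31500 bp and at 32322 to 32974 bp. Each library divided the former into 2 peaks, and its highest folds were 5.24, 6.39 and 4.999. These came from the nearer peak in replicate 1 and the farther one in replicates 2 and 3, with summits at 29858, 31032 and 30904 bp. The latter gave folds of 5.10, 8.85 and 5.45, at percentiles 52.7, 95.4 and 62.4 of their lists. Its peaks in replicates 1 and 3 did not overlap each other and were joined only through the peak of replicate 2. After another 5614 bp without peaks, replicate 2 had a peak at 38589 to 38796 bp (fold 5.33) and replicate 3 a peak at 39058 to 39213 bp (fold 4.91). These last 2 did not overlap, and replicate 1 had no peak this far into the gene.

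**Figure D3:**
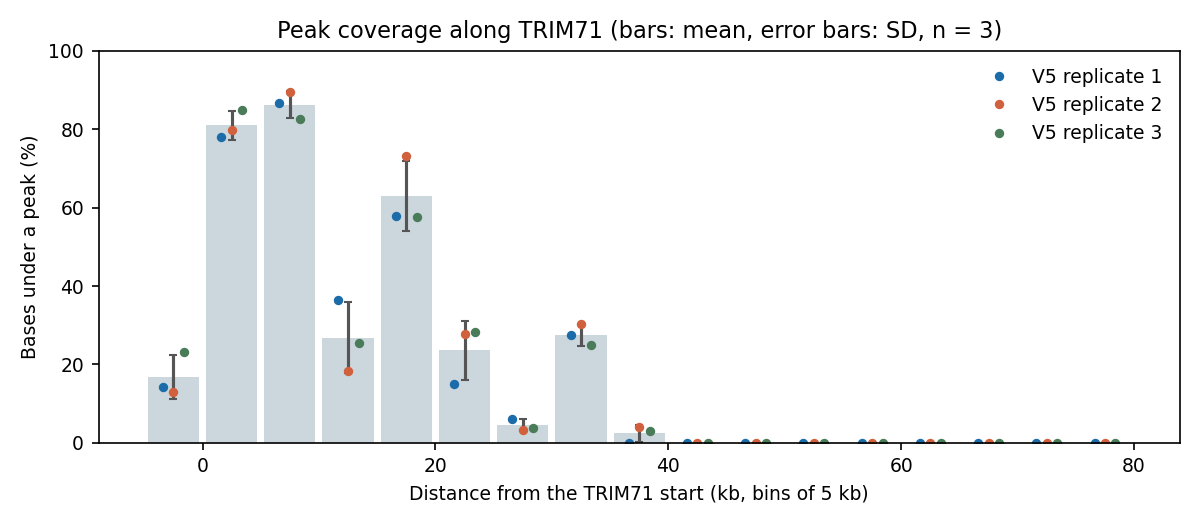
Share of bases under a peak (y axis, %) in bins of 5 kb by distance from the TRIM71 start in kb (x axis); bars are the mean of the 3 libraries, error bars the SD and points the libraries. Coverage is 80.9% and 86.2% in the 2 bins after the start, rises again to 62.97% between 15 and 20 kb, and is 0 in every library from 40 kb on.

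Counted in bins of 5 kb, coverage did not decline evenly along the gene. It was 80.9% ± 3.61 in the bin at the start and 86.2% ± 3.40 in the next (SD, n = 3). It was then 26.8% ± 9.11 between 10 and 15 kb, 62.97% ± 8.93 between 15 and 20 kb and 23.6% ± 7.53 between 20 and 25 kb. The values of the 3 libraries between 15 and 20 kb (57.98, 73.3 and 57.6%) lay above all those of the bins on either side. Between 25 and 30 kb it was 4.47% ± 1.49, and between 30 and 35 kb 27.6% ± 2.78. The 3 values of the former bin all lay below those of the latter.

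Merging peaks that overlapped by at least 1 bp gave 24 regions in the window, of which 15 held peaks of all 3 libraries, 4 of 2 and 5 of 1. These counts depend on the threshold. With -log10 q of at least 5, regions of all 3 libraries numbered 4 and those of at least 2 numbered 7 in place of 19, and with fold of at least 5 the former numbered 9. Over all regions of the series the share with 3 libraries was 17.1%, and the share with at least 2 was 36.7%. Since the window was chosen for its peaks in these lists, nothing is read from that difference. All 15 regions shared by the 3 libraries lay within 34561 bp, from 1586 bp before the start to 32974 bp after it. The last of them had no base under a peak of all 3, since replicates 1 and 3 were joined there only through replicate 2. With an overlap of at least 50% of the shorter peak, 14 regions held peaks of all 3 libraries. In 11 of the 15 regions each library had exactly 1 peak. Their summits, each taken from the peak of highest fold, lay within a range of 32 to 1540 bp over the libraries, with a median of 280 bp. Base by base, 26.8% of the merged run of 40800 bp lay under a peak in all 3 libraries, 12.4% in 2, 16.7% in 1 and 44.1% in none. The bases shared by a pair of libraries, as a share of those covered in either, were 61.6% for replicates 1 and 2, 59.4% for 1 and 3 and 63.3% for 2 and 3.

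By strength the peaks of the window were mixed. Their median fold was 5.33, 6.17 and 5.51 in replicates 1, 2 and 3, against 5.01, 5.24 and 5.03 over the rest of each list. Their median percentile by fold was 60.2, 72.2 and 64.5, but by -log10 q it was 45.02, 60.8 and 40.8. The median of the window thus lay above the middle of the list by fold in all 3 libraries, and by -log10 q in replicate 2 only. Widths separated further, with medians of 319.5, 389.5 and 432.5 bp against 220, 223 and 222 bp elsewhere. The weakest peaks of the window by -log10 q had values of 1.94, 2.12 and 1.64, and the least folds were 2.94, 4.30 and 2.92.

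The surroundings were sparse. Upstream of the run, replicates 1 and 2 had a peak at the same place, with summits 37103 and 36945 bp before the TRIM71 start (folds 5.49 and 7.49). Replicate 3 had none there and a peak 23151 bp before the start (fold 6.08). Neither place lay within 1000 bp of an annotated gene. The window also touches the end of CNOT10, a subunit gene of the CCR4-NOT deadenylase, and 2 pseudogenes, SUGT1P2 and RPL23AP43, and none had a peak within the window. Just outside the window, the nearest peak on the upstream side was inside CNOT10 in replicate 1 (32732887 to 32733042, fold 4.81), whereas in replicates 2 and 3 it lay 601 and 602 kb before TRIM71. On the other side the next protein-coding gene is CCR4, a chemokine receptor, which had no peak in any library. The next peak past TRIM71 lay 5099 kb beyond its end in all 3 libraries, with folds of 7.02, 10.8 and 8.88.

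Across the genome, TRIM71 had more peaks than any other of 19987 protein-coding genes in each of the 3 libraries. Counting peaks over a gene or within 1000 bp of it, TRIM71 had 22, 20 and 18. The next gene had 14 in replicate 1, 18 in replicate 2 and 13 in replicate 3, which was EML4 in replicates 1 and 2 (tied with TRIM24 in replicate 1) and MATR3 in replicate 3. No other gene reached the count of TRIM71 in all 3 libraries, so that the share with at least that many was 0.00500%, TRIM71 itself. Most genes with any peak had a single one, 72.3, 72.3 and 76.4% of 740, 1150 and 973 genes. By bases under peaks TRIM71 also stood at the top of each list, with 15679, 16670 and 16136 bp against 9831 bp at TRA2B, 9602 bp at SNX5 and 9426 bp at TRA2B, the next in replicates 1, 2 and 3. By peaks per kb it did not, since 33 genes were at least as dense in all 3 libraries. Among the 4195 genes at least as long as TRIM71, none was as dense in any library. That follows from their lower counts over spans at least as long, and adds nothing to the ranking by count.

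**Figure D4:**
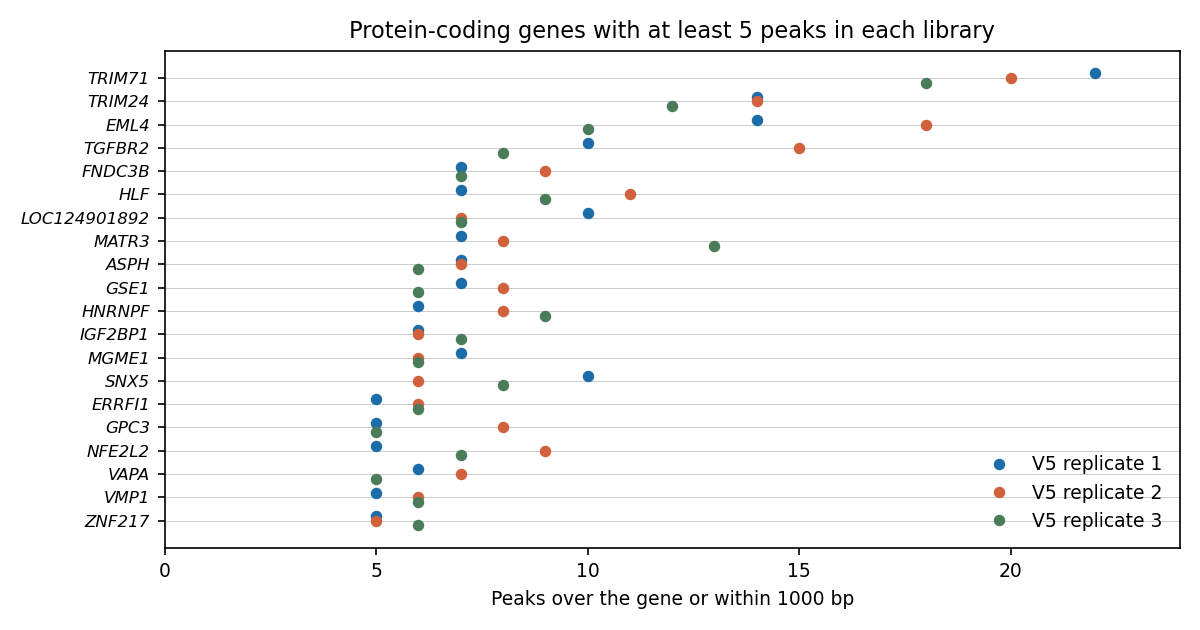
Number of peaks over each gene or within 1000 bp (x axis) for the 20 protein-coding genes with at least 5 peaks in every library, coloured by library and ordered by their lowest count. TRIM71 lies at 18 to 22, to the right of all others in each library.

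Having at least 5 peaks in each library was rare, at 20 of 19987 protein-coding genes (0.100%). The genes whose 3 counts differed least from those of TRIM71, summed over the libraries, were EML4 (14, 18 and 10 peaks, a summed difference of 18) and TRIM24 (14, 14 and 12, a difference of 20). EML4 encodes a microtubule-binding protein and TRIM24 a chromatin reader and ubiquitin ligase of another TRIM subfamily. TGFBR2, a receptor of TGF-beta, followed with 10, 15 and 8 (27), then MATR3, a nuclear matrix RNA-binding protein, with 7, 8 and 13 (32), and HLF, a PAR bZIP transcription factor, with 7, 11 and 9 (33). FNDC3B, a gene of 362092 bp, was named as well for its lowest count of 7, which it shared with HLF, MATR3 and LOC124901892.

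The place of the peaks within the gene was shared with several of these. In TRIM71 the median summit inside the gene lay at 19.8, 23.3 and 20.6% of its length from the start in replicates 1, 2 and 3. EML4 had its median at 9.18, 8.42 and 3.88% and TGFBR2 at 10.3, 9.54 and 9.01%, and in both every summit inside the gene lay in the 50% nearer the start. Of the 14 other genes with at least 5 peaks per library whose strand the promoter table gave, 11 had a median below 50% in all 3 libraries. VMP1 was an exception, with medians of 97.4, 97.1 and 97.9%. A peak covered the start base given by the promoter table in all 3 libraries in 2 of the 14 and in no library in 6. At TRIM71 that base was covered in replicate 3 alone. In GSE1, HNRNPF, MGME1, NFE2L2 and ZNF217 the promoter table's start lay inside the annotated span. It need not be the point from which their medians were measured. The genes compared here were picked by their peaks, and their positions are given as a description. SNX5 and MGME1, both among the 11, are neighbours with the same strongest and widest peaks, which were counted for each gene.

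Related genes were then counted from a list chosen with results of these data known. It held 24 protein-coding genes, namely the let-7 processing genes, the LIN28 genes, let-7 targets, reported targets of TRIM71 and the TRIM genes with an NHL domain, and 12 let-7 family microRNA genes. A peak over the gene or within 1000 bp in at least 2 libraries was present at 5 of the 24, against 3.76% of all protein-coding genes. With a peak in any library the count was 8 (8.67% of all genes), and with a peak in all 3 it was 2 (1.90%). With a peak within 1000 bp of an annotated end in at least 2 libraries it was 1 (1.37%). Genes of the list were long, with a median of 63725 bp against 24140 bp, and among all genes of at least that length the share was 6.52%. A count of 5 is small, and no test was made. None of the 12 microRNA genes had a peak within 1000 bp in any library, where 0.733% of all microRNA genes had one in at least 2. At so low a share, a list of 12 genes without a peak says little. TRIM2, TRIM3 and TRIM32, which share the NHL domain with TRIM71, had no peak either, and LIN28A and LIN28B, whose proteins block let-7 maturation, had none. Since only 8.67% of all protein-coding genes had a peak in any library, so few genes without one also say little.

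The 5 were IGF2BP1, IGF2BP2, IGF2BP3, HMGA2 and CDKN1A. IGF2BP1, an oncofetal RNA-binding protein and let-7 target, had 6, 6 and 7 peaks. Those inside the gene lay between 2745 and 7419 bp from its lower annotated end in a gene of 59588 bp, with folds from 3.96 to 6.23. It was the only member of the list with at least 5 peaks in each library. IGF2BP2 had 1 peak in replicate 1 and 1 in replicate 3, which did not overlap, with summits 2500 and 27 bp inside its start. IGF2BP3 had 2 peaks in replicate 2 and 3 in replicate 3. A pair of these overlapped at the start of IGF2BP3, with summits 44 and 110 bp before it and low folds of 3.94 and 3.47.

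HMGA2, a chromatin protein and classic let-7 target, had 2 peaks in each of replicates 2 and 3 and none in replicate 1. The peaks of one pair overlapped, with summits 105919 and 105787 bp from its lower annotated end and folds of 5.76 and 4.53. CDKN1A, which encodes the cell cycle inhibitor p21 and whose messenger RNA is a reported target of TRIM71, had a peak at the same place in all 3 libraries. Its summits lay 5050, 5043 and 5058 bp into the gene from the promoter table's start, with folds of 6.34, 6.61 and 7.20, a spread of 15 bp in position. Replicate 3 had a further CDKN1A peak with its summit 133 bp before that start (fold 5.28). Of the other members, DROSHA, MYC and AGO2 had a peak in 1 library each and 16 had none.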

How the data were processed

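The 3 V5 peak lists were used as deposited, in the narrowPeak layout, 1 list per library. The genome build was GRCh38 per the submitters' processing notes. Aligner, peak caller, threshold and control were not given in the sources used. The deposited fold is linear, a ratio of each peak to the caller's background, and the deposited -log10 p and -log10 q are the authors' values. The deposited score equals 10 times -log10 q cut to a whole number in all 6043 peaks and was not used. Both rank peaks inside a list, and values of several lists are set side by side without a test. No read counts are given, so depth is unknown.

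Positions were written 1-based. Overlap means at least 1 bp. A percentile is the share of the list's other peaks with a lower value. Gene spans, strands and promoter sequence came from RefSeq (GRCh38.p14), and the 250 bases before each annotated start were searched on both strands. TRIM24, LOC124901892, ASPH, IGF2BP1, GPC3 and HMGA2 were not matched in the promoter table.

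The locus, the gene list and the comparisons were chosen with earlier results of these data known, and no test was made. Named genes were TRIM71, genes in the window, its neighbours, list members with peaks in 2 or more libraries, the 5 genes with counts nearest to TRIM71 and the 5 with the highest lowest count. Others were named after their values were seen. Counting code was checked on simulated data. Alternatives changed the threshold, overlap, joining gap, gene window, measure and libraries. Python 3.11.15, pandas 2.3.3, numpy 2.4.6 and matplotlib 3.10.9 were used.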

Additional observations from a re-analysis of the deposited data

How the results depend on the processing

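Of 47 alternatives to 8 results, 35 left the value within 1.5 times (counts) or within 1 SD over libraries, and 12 moved it. With -log10 q of at least 5, the mean number of peaks in the window was 10.3 in place of 22, the regions of all 3 libraries numbered 4 in place of 15, those of at least 2 libraries 7 in place of 19, and the merged run was 34561 bp long in place of 40800. With fold of at least 5, regions of all 3 libraries numbered 9. Joining peaks within 500 bp left a mean of 12.7 peaks. A largest gap of 5 kb shortened the run to 25454 bp. Counted per kb, 33 genes had at least as many peaks as TRIM71 in each library, against 0 by number of peaks. By -log10 q the mean of the median percentiles was 48.9, against 65.7 by fold. Genes of the related list numbered 1 with a peak within 1000 bp of an annotated end, 8 with a peak in any library and 2 with a peak in 3, against 5. Leaving out each replicate gave 21 to 23 peaks, 86.9 to 88.7% of them in the gene, 16 to 17 regions of both other libraries and a run of 40383 to 40800 bp, and no gene reached the count of TRIM71. No paired analysis was possible because the results come from no test and the peak lists analysed here are of V5 libraries only. Depth is unknown, so a place without a peak is below the caller's threshold and not shown to be empty.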
